A study of Homo sapiens with 12 samples.

Results

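The genes described here are those of the interferon response and of antigen presentation. They were matched by gene symbol, from families that interferons induce (IFI, IFIT, ISG, OAS, MX and GBP genes) and interferon regulatory factors. RNA sensors and the machinery that loads peptides onto HLA molecules were matched as well. The choice was made with earlier results of these data known. Of the 14580 genes with a symbol in the table, 48 matched, and each was represented by 1 probe set, the set of probes that together report a gene. RNA of A2058, a BRAF-mutant human melanoma cell line, was hybridised to Affymetrix arrays after 24 h of treatment. Cells of the DTE group received dabrafenib (100 nM), trametinib (10 nM) and entinostat (1 µM) together, cells of the DT group received dabrafenib and trametinib at those doses, cells of the E group received entinostat alone at that dose, and cells of the DMSO group received the solvent. Dabrafenib inhibits RAF kinases, trametinib inhibits MEK and entinostat inhibits class I histone deacetylases. Each group had 3 arrays. The labels name no added interferon, and the cells were a monoculture of 1 line. The sample titles speak of biological replicates and the series design of technical ones, so the p-values rest on the scatter among arrays of a group, and that scatter may be technical only.

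Interferons bind receptors that activate JAK kinases, and transcription factors then bind the interferon-stimulated response element (ISRE) or the gamma-activated site (GAS) in promoters. The induced proteins sense foreign RNA, block translation and viral entry, and raise the display of peptides on HLA class I molecules, by which T cells recognise tumour cells. The classical HLA genes and the TAP transporters were not analysed here, so the class I group rests on B2M, ERAP1, ERAP2, TAPBP and TAPBPL.

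Upstream sequences are shown for 6 members, chosen after their values were seen. IFI44L, IFIT1, HERC5 and DDX60L show the motif described next among members higher in DTE than in DT, and HERC6 and RIGI are changed members without it. IRF4 and HLA-F-AS1, which had larger changes than some of these, also held no match and are not printed. For each, the 250 bases before the RefSeq start (GRCh38.p14) were taken, and the ISRE core (GAAA, any 2 bases, then GAAA) was searched on both strands. Capitals mark the matches, which in HERC5 include an overlapping pair printed as 1 run. The windows lie at chr1:78620198-78620447 on the plus strand for IFI44L, chr10:89392373-89392622 plus for IFIT1, chr4:88456869-88457118 plus for HERC5, chr4:168480493-168480742 minus for DDX60L, chr4:88378602-88378851 plus for HERC6 and chr9:32526197-32526446 minus for RIGI.
IFI44L: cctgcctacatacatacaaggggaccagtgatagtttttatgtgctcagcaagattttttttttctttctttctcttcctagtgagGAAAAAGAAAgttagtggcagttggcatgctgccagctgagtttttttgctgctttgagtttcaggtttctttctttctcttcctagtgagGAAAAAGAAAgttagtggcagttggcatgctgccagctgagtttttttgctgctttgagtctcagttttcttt
IFIT1: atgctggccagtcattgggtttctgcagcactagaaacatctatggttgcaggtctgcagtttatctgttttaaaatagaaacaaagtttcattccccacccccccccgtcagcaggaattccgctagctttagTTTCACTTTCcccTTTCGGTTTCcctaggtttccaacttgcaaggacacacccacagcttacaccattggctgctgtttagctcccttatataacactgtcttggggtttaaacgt
HERC5: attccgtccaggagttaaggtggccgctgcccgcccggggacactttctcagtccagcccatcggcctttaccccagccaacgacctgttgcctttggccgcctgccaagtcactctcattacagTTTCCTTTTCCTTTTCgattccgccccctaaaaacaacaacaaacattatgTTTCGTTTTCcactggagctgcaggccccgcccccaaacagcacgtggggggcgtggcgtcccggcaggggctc
DDX60L: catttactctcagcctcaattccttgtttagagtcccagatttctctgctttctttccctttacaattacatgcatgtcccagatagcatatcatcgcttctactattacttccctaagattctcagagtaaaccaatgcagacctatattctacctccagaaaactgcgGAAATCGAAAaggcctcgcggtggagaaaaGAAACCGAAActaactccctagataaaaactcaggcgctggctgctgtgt
HERC6: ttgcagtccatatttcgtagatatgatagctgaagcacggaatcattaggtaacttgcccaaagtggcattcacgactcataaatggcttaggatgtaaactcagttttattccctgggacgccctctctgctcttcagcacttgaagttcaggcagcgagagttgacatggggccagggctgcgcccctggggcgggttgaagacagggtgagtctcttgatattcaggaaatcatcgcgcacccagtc
RIGI: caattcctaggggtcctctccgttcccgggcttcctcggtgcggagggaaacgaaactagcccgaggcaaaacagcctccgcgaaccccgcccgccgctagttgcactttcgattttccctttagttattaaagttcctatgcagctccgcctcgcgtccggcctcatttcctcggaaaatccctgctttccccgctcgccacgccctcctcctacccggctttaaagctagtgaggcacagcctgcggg

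The first matching base stood 164 and 73 bases before the start in IFI44L, 116 and 103 bases before it in IFIT1, 125, 119 and 74 bases before it in HERC5, and 80 and 50 bases before it in DDX60L. The windows of HERC6 and RIGI held no match to these letters. Among the 48 members, 37 had an entry in the promoter table, and 17 of these (45.9%) held the ISRE core, against 839 of all 27305 promoters (3.07%). The GAS motif (TTC, any 3 bases, then GAA), also searched on both strands, was found in 7 members (18.9%), against 1850 promoters (6.78%), and 3 members held both motifs. Because the members were picked by name from families that interferons induce, a higher share with these motifs goes with that choice. It is no result of the treatments. A match of letters is not a measured binding site.

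The values are intensities deposited by the authors on a linear scale and analysed here as log2 intensities. Array medians over all genes were 4.61 to 4.69 in DTE, 4.40 to 4.60 in DT, 4.87 to 4.90 in E and 4.58 to 4.80 in DMSO. The median log2 change over all genes was -0.11 for DTE against DMSO, -0.17 for DT against DMSO and 0.07 for E against DMSO. After quantile normalization, which gives all arrays the same distribution, these medians were -0.04, 0.002 and -0.03. Counts are therefore given on both scales. DTE replicate 3 was the highest array of its group for 27 of 48 members (56.2%, against 47.3% of all genes), and DT replicate 2 for 31 members (64.6%, against 65.1%). For melanoma markers, of which 6 of 7 were measured, linear intensities were summed on each array. The log2 of this sum was 10.66 to 10.71 in DTE, 11.15 to 11.36 in DT, 10.47 to 10.63 in E and 10.63 to 10.67 in DMSO. Sums of the marker lists that follow are given in the same way. The 4 measured leukocyte markers of 10 (CD14, CD68, CSF1R and LYZ) summed to 8.54 to 8.77 in DTE, 8.29 to 8.45 in DT, 9.28 to 9.53 in E and 8.78 to 8.88 in DMSO. Of the 4, only CD68 was called higher in E, and 2 were called lower in DT (1 and 1 after quantile normalization). In E 3 of the 4 changed upward, while CD14 had a mean of 2.29 in E and 2.51 in DMSO. CD68 made up most of these sums, with means of 8.56 in DTE, 8.24 in DT, 9.36 in E and 8.73 in DMSO. The DMSO means of CSF1R and LYZ were 3.76 and 3.88. The 3 measured fibroblast markers (DCN, LUM and THY1) summed to 8.78 to 9.23 in DTE, 7.53 to 7.94 in DT, 8.23 to 8.49 in E and 7.38 to 7.59 in DMSO. LUM made up most of these sums and changed by 1.63 in DTE against DMSO. THY1 changed by 0.10 in DTE and -0.43 in DT against DMSO, and DCN was among the dimmest 25% of genes. Against DMSO, 3 of the 3 were called higher in E, 2 in DTE and 0 in DT. The 4 epithelial markers summed to 6.09 to 6.33 in DTE, 5.75 to 6.03 in DT, 6.79 to 6.98 in E and 6.24 to 6.63 in DMSO. The part of these markers in the results was not tested.

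A change was called at an adjusted p under 0.05 in limma, with Benjamini-Hochberg adjustment over all 14580 genes within a comparison. With all 3 drugs, 8 of 48 members were called higher than in DMSO (16.7%, against 9.64% of all genes) and 15 lower (31.2%, against 22.5%). With dabrafenib and trametinib, 5 were called higher (10.4%, against 3.23%) and 15 lower (31.2%, against 24.1%). With entinostat alone, 10 were called higher (20.8%, against 12.5%) and 2 lower (4.17%, against 3.54%). The median change of the members was -0.19 in DTE, -0.23 in DT and 0.11 in E. After quantile normalization the members called higher and lower numbered 11 and 9 in DTE (all genes 14.2% and 14.2%), 6 and 4 in DT (8.55% and 7.86%), and 8 and 4 in E (9.67% and 8.45%). The members' share called lower in DT was therefore above that of all genes on the deposited scale and close to it after quantile normalization. In all, 34 of the 48 (70.8%, against 51.2% of all genes) were called in at least 1 of 5 comparisons between groups, and 26 (54.2%, against 43% of all genes) after quantile normalization.

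**Figure D1:**
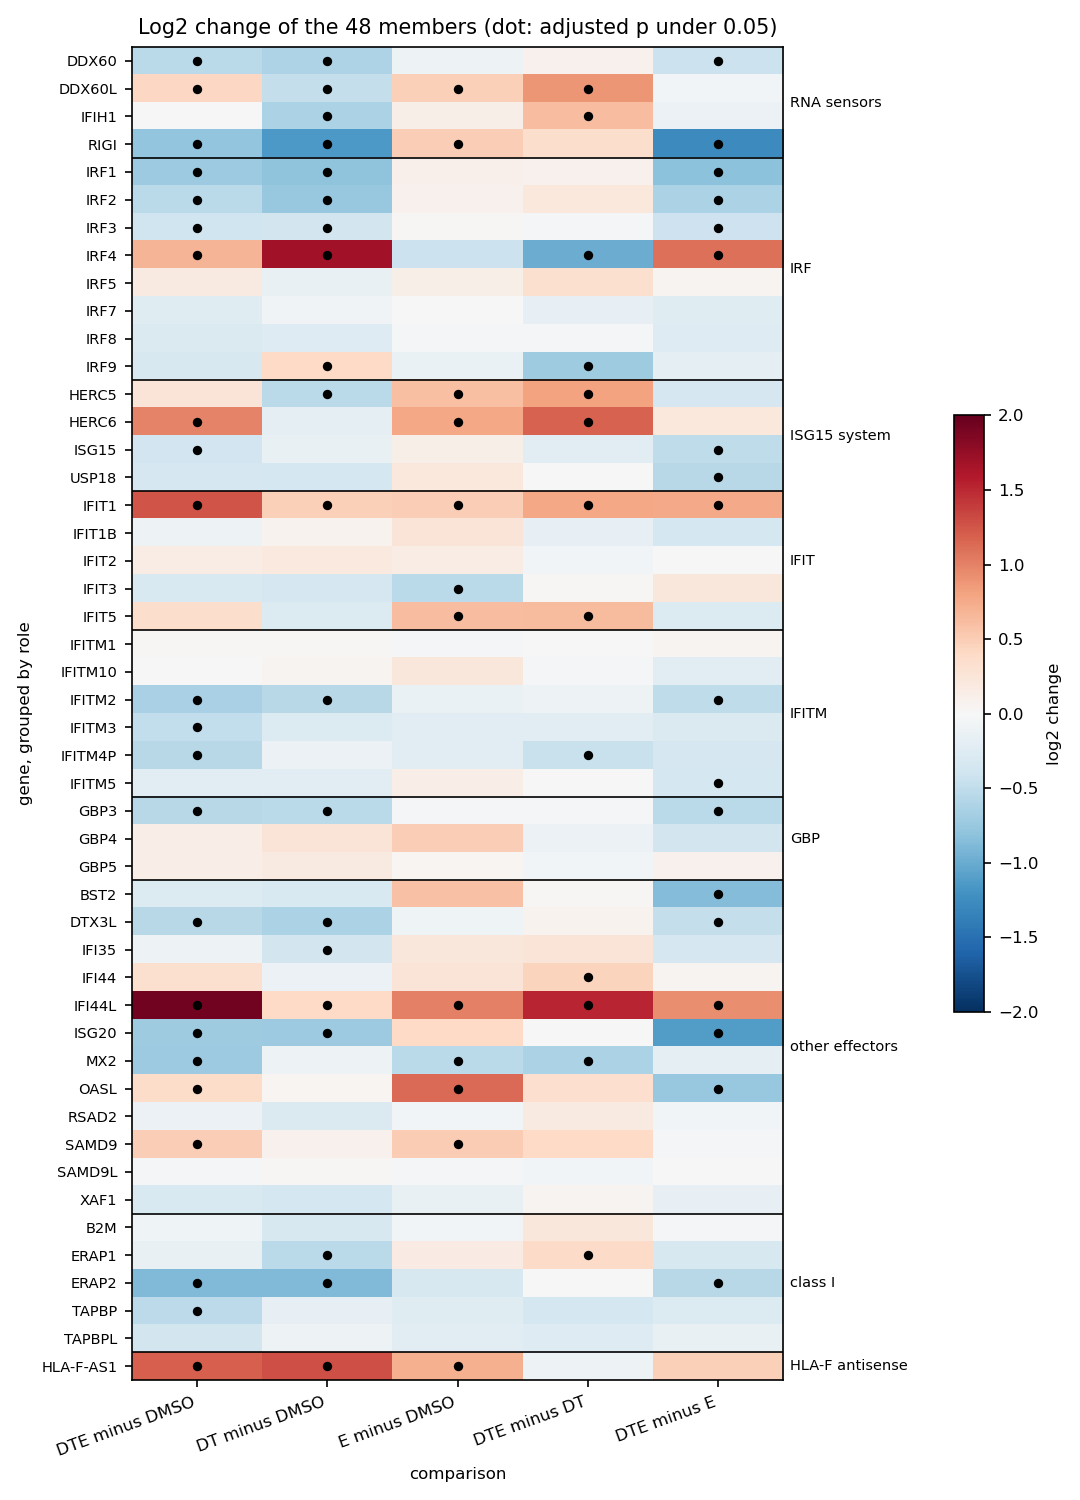
Log2 change of each of the 48 members (rows, grouped by role) in 5 comparisons (columns), with red for higher and blue for lower in the group named first. Dots mark an adjusted p under 0.05 in limma. IFI44L and IFIT1 are red with a dot in all 5 columns, and RIGI is red in E against DMSO and in DTE against DT and blue in the other columns.

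**Figure D2:**
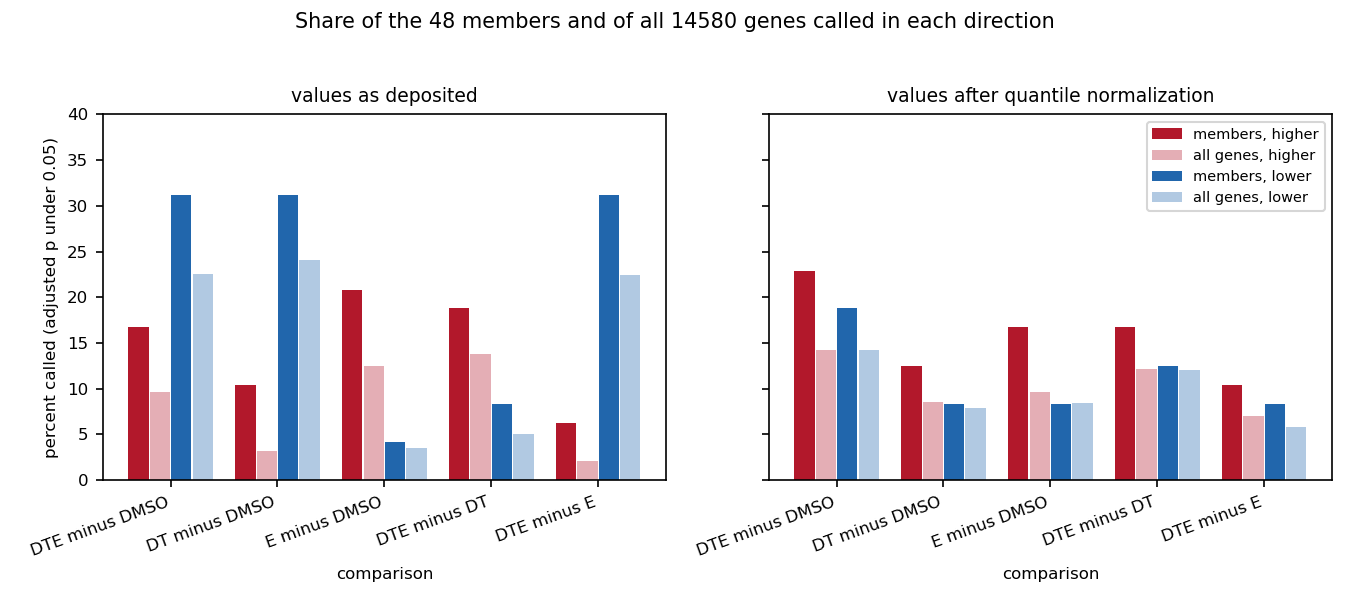
Percent of the 48 members (solid bars) and of all 14580 genes (pale bars) called higher (red) or lower (blue), for values as deposited (left) and after quantile normalization (right). The members' share called lower in DT against DMSO is 31.2% as deposited and 8.33% after quantile normalization.

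The RNA sensors and their relatives fell with dabrafenib and trametinib, all 4 of 4 on the deposited scale (24.1% of all genes were called lower), while after quantile normalization 1 of them, RIGI, was called (7.86% of all genes). RIGI encodes RIG-I, the helicase that detects short double-stranded and triphosphate RNA and starts interferon production. RIGI had log2 intensities of 5.31, 5.69 and 5.73 in DTE, 5.18, 5.16 and 5.31 in DT, 6.84, 6.95 and 6.75 in E, and 6.27, 6.51 and 6.30 in DMSO. The E arrays were the highest, DMSO came next, and both groups with dabrafenib and trametinib lay below DMSO without overlap. The log2 change was -1.14 in DT against DMSO (2.21-fold lower, SE 0.13, adjusted p = 3.89e-06) and -0.82 after quantile normalization. With entinostat alone it was 0.49 (SE 0.13, adjusted p = 0.0153), a call lost when DMSO replicate 1, DMSO replicate 3 or E replicate 2 was left out, with adjusted p up to 0.0719. In DTE, RIGI stayed 1.72-fold below DMSO (log2 change -0.79, adjusted p = 0.000158) and 2.41-fold below E (log2 change -1.27, adjusted p = 1.75e-06).

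IFIH1, which encodes MDA5, the sensor of long double-stranded RNA, ranged over 5.43 to 5.93 in DTE, 4.74 to 5.13 in DT, 5.70 to 5.80 in E and 5.52 to 5.71 in DMSO. DT was the only group that stood apart. Its log2 change was -0.63 in DT against DMSO (SE 0.14, adjusted p = 0.00334), -0.35 after quantile normalization (adjusted p = 0.0626), and 0.62 in DTE against DT (SE 0.14, adjusted p = 0.00481). In DTE against DMSO the difference was -0.01 (adjusted p = 0.966), and in E against DMSO 0.11 (adjusted p = 0.684).

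DDX60 and DDX60L are paralogous helicases linked to RIG-I signalling. DDX60L lay at 6.0 to 6.45 in DTE, 5.24 to 5.50 in DT, 6.05 to 6.41 in E and 5.60 to 5.98 in DMSO, so DTE and E overlapped and both lay above DMSO. It was 1.85-fold higher in DTE than in DT (log2 change 0.88, SE 0.15, adjusted p = 0.00026), a call kept without each array in turn. Its calls against DMSO were weaker: the one in DTE was lost without DMSO replicate 1 or 3 or DTE replicate 2 or 3 (adjusted p up to 0.165), the one in DT without DMSO replicate 1 or 2 or DT replicate 1 or 3 (up to 0.112), and the one in E without DMSO replicate 1 or 3 or E replicate 2 or 3 (up to 0.169). DDX60 was lower in both groups with dabrafenib and trametinib, with a change of -0.53 in DTE (adjusted p = 0.00858) and -0.62 in DT (adjusted p = 0.00403) against DMSO. Without DTE replicate 1 the adjusted p of DDX60 in DTE was 0.0552.

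Among the 8 interferon regulatory factors, the transcription factors that switch interferon genes and their targets on or off, IRF1, IRF2 and IRF3 were called lower and IRF4 and IRF9 higher in DT against DMSO. After quantile normalization IRF1 and IRF2 were still called lower and IRF4 and IRF9 higher. In DTE the calls were IRF1, IRF2 and IRF3 lower and IRF4 higher, and after quantile normalization IRF1 lower and IRF4 higher. Of all genes, 3.23% were called higher and 24.1% lower in DT, and 9.64% and 22.5% in DTE. After quantile normalization these shares were 8.55% and 7.86% in DT, and 14.2% and 14.2% in DTE. In E, limma called 0 of the 8 on the deposited scale (all genes 12.5% higher and 3.54% lower), where 1, IRF4, had an unadjusted p under 0.05. IRF3, which switches on interferon genes after RNA sensing, changed by -0.39 in DTE and -0.37 in DT (adjusted p = 0.022 and 0.0335), calls lost in DTE without DMSO replicate 2 or DTE replicate 3 (adjusted p up to 0.0934) and in DT without DMSO replicate 1 or 2 or DT replicate 1 or 3 (up to 0.148).

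IRF4, a factor of lymphocytes and of the melanocyte lineage, had log2 intensities of 6.92, 6.95 and 7.26 in DTE, 7.94, 8.18 and 8.01 in DT, 5.83, 5.78 and 6.23 in E, and 6.14, 6.46 and 6.50 in DMSO. DT was highest and DTE next, both clear of DMSO, while E overlapped DMSO. The log2 change was 1.68 in DT (3.19-fold higher, SE 0.15, adjusted p = 1.57e-07) and 0.68 in DTE (SE 0.15, adjusted p = 0.00178). It was -0.42 in E (adjusted p = 0.0611, and -0.51 with adjusted p = 0.0127 after quantile normalization), and DTE lay 2-fold below DT (log2 change -1.0, adjusted p = 8.24e-05). Beside this, MITF, the master regulator of melanocytes, changed by 0.65 in DTE, 1.36 in DT and -0.68 in E against DMSO (adjusted p = 0.00275, 2.56e-06 and 0.00396). The other melanoma markers did not all move with it. Of the 6, MITF included, 2 were called higher in DTE and 1 lower, S100B (-0.47, adjusted p = 0.00602). In DT 3 were called higher, and in E 3 lower. After quantile normalization 2 were called higher and 0 lower in DTE, 5 higher in DT and 3 lower in E. On the deposited scale 3 of the 6 changed upward in DTE, 5 in DT and 2 in E. The part of the lineage programme in the IRF4 change was not tested.

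IRF9, a DNA-binding factor that acts at the ISRE, had log2 intensities of 4.95, 4.68 and 4.69 in DTE, 5.35, 5.66 and 5.45 in DT, 5.04, 5.0 and 4.84 in E, and 5.14, 5.32 and 4.81 in DMSO. DT was highest, and the other 3 groups overlapped. Its rise of 0.39 in DT (SE 0.14, adjusted p = 0.0462) held only without DMSO replicate 2, DTE replicate 1 or DTE replicate 3, and without any other array it was lost (adjusted p up to 0.211). By contrast, DTE against DT, with a log2 change of -0.71 (1.64-fold lower, SE 0.14, adjusted p = 0.00128), was called without each array in turn.

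IRF1, an activator of antigen presentation genes, had log2 intensities of 4.45, 4.37 and 4.63 in DTE, 4.38, 4.38 and 4.41 in DT, 5.37, 5.47 and 5.06 in E, and 5.43, 5.28 and 4.88 in DMSO. Both groups with dabrafenib and trametinib lay below both groups without. The change against DMSO was -0.72 in DTE (SE 0.15, adjusted p = 0.000932) and -0.81 in DT (1.76-fold lower, SE 0.15, adjusted p = 0.000459). IRF2, which competes with IRF1 for its sites, had log2 intensities of 7.25, 7.32 and 7.52 in DTE, 6.98, 7.17 and 7.29 in DT, 8.10, 7.85 and 8.04 in E, and 7.90, 7.97 and 7.86 in DMSO, the same split of groups. Its change was -0.54 in DTE (adjusted p = 0.00238, and 0.0694 after quantile normalization) and -0.76 in DT (adjusted p = 0.000179, and 0.0196 after quantile normalization).

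**Figure D3:**
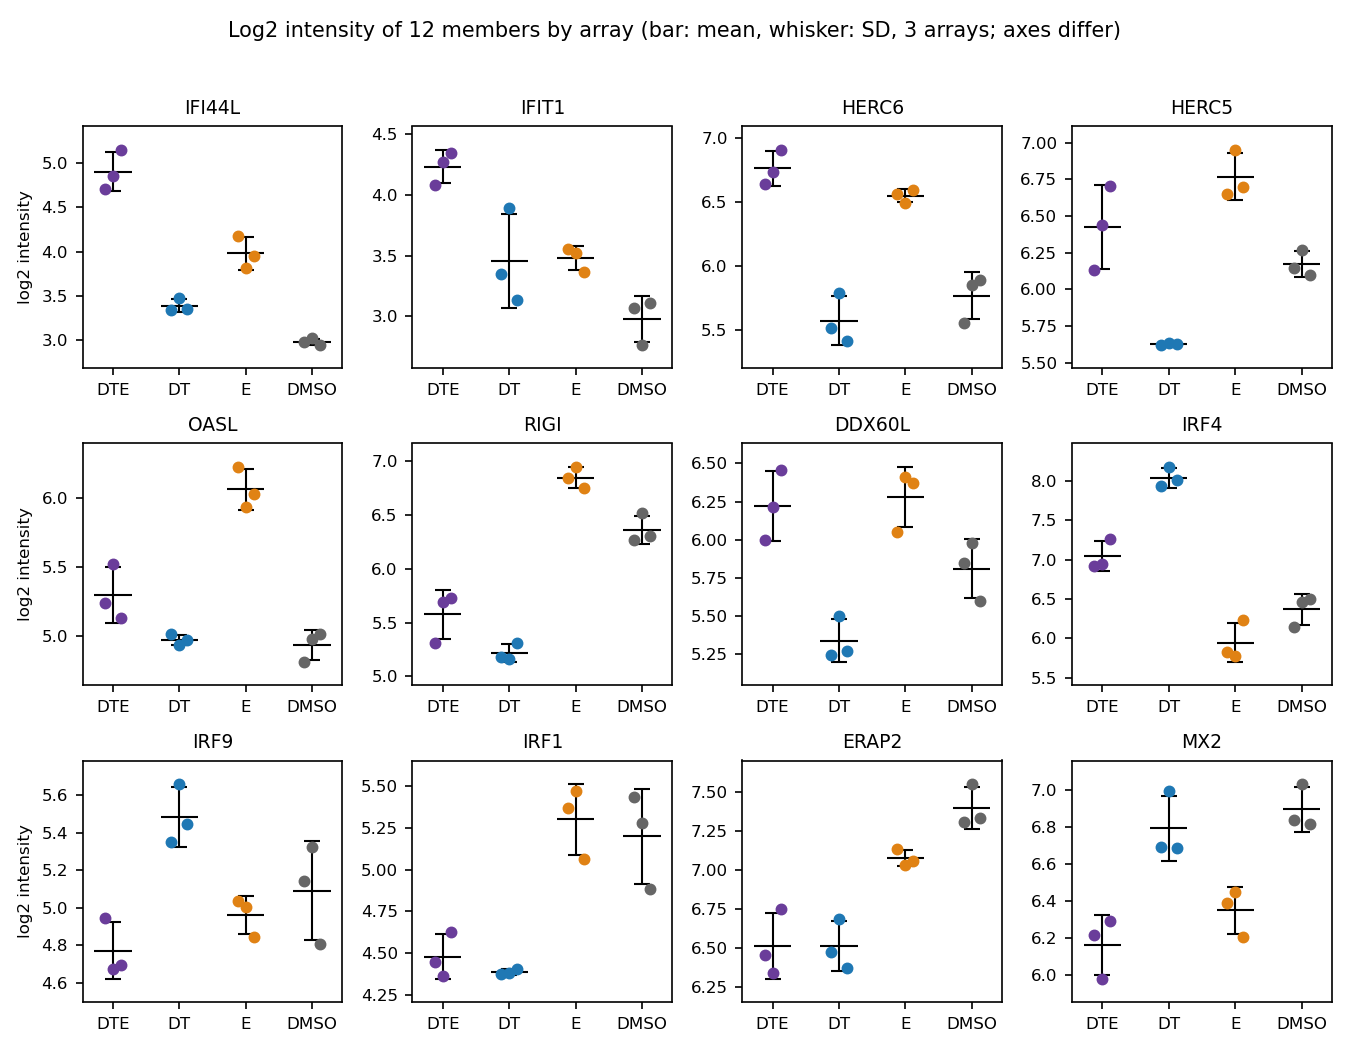
Log2 intensity of 12 members on each of the 12 arrays (points), with the group mean (bar) and SD (whisker); the vertical axes differ between panels. IFI44L shows 4 separate groups with DTE highest, IRF4 is highest in DT, and IRF1 and ERAP2 are lower in DTE and DT than in E and DMSO.

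The ISG15 system attaches the ubiquitin-like protein ISG15 to other proteins. Its ligase genes HERC5 and HERC6 rose with entinostat, on both scales, while ISG15 itself and USP18, the enzyme that removes ISG15, were not called in E. HERC6 had log2 intensities of 6.64, 6.73 and 6.90 in DTE, 5.52, 5.79 and 5.42 in DT, 6.56, 6.49 and 6.59 in E, and 5.56, 5.85 and 5.89 in DMSO. Both groups with entinostat lay above both groups without. HERC6 was 1.99-fold higher in DTE than in DMSO (log2 change 0.99, SE 0.13, adjusted p = 1.61e-05), 1.72-fold higher in E than in DMSO (0.78, SE 0.13, adjusted p = 0.00038) and 2.27-fold higher in DTE than in DT (1.18, SE 0.13, adjusted p = 3.52e-06). In humans HERC5 is the main ISG15 ligase, and the function of human HERC6 is less clear.

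HERC5 had log2 intensities of 6.13, 6.44 and 6.70 in DTE, 5.62, 5.64 and 5.63 in DT, 6.65, 6.95 and 6.70 in E, and 6.14, 6.27 and 6.10 in DMSO. DT was lowest on all 3 arrays, and DTE overlapped both E and DMSO. HERC5 changed by -0.54 in DT (adjusted p = 0.00688, and -0.23 with adjusted p = 0.209 after quantile normalization) and by 0.60 in E (SE 0.14, adjusted p = 0.00545). DTE against DT gave 0.80 (1.74-fold higher, SE 0.14, adjusted p = 0.000384), while DTE against DMSO gave 0.25 (adjusted p = 0.18).

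ISG15 had log2 intensities of 5.12, 4.88 and 4.93 in DTE, 5.10, 5.13 and 5.38 in DT, 5.37, 5.53 and 5.54 in E, and 5.60, 5.26 and 5.20 in DMSO. It differed by -0.38 in DTE against DMSO (SE 0.13, adjusted p = 0.0367), a call lost without DMSO replicate 1, DTE replicate 2 or DTE replicate 3 (adjusted p up to 0.208) and after quantile normalization (adjusted p = 0.158). DTE against E gave -0.50 (SE 0.13, adjusted p = 0.0111, and 0.32 after quantile normalization), and the groups did not overlap.

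IFIT proteins bind viral RNA and block its translation. Among the 5 IFIT genes, IFIT1 and IFIT5 were called higher and IFIT3 lower in E, and in DTE the call was IFIT1 higher (IFIT1 and IFIT5 after quantile normalization). Of all genes, 12.5% were called higher and 3.54% lower in E, and 9.64% higher in DTE (14.2% after quantile normalization). IFIT1 had log2 intensities of 4.08, 4.27 and 4.35 in DTE, 3.34, 3.89 and 3.13 in DT, 3.55, 3.52 and 3.36 in E, and 3.07, 2.76 and 3.11 in DMSO. DTE lay above every other group, DT and E overlapped, and the DMSO mean was below the lower quartile of genes there (2.98), a range not shown to lie above background, so fold sizes against DMSO are uncertain. IFIT1 was 2.38-fold higher in DTE than in DMSO (log2 change 1.25, SE 0.16, adjusted p = 1.4e-05), 1.71-fold higher than in DT (0.78, adjusted p = 0.0021) and 1.69-fold higher than in E (0.75, adjusted p = 0.00313). The separate change of 0.47 in DT (adjusted p = 0.0384) lost its call without DMSO replicate 1 or 2 or DT replicate 1 or 2 (adjusted p up to 0.203). The change of 0.50 in E (adjusted p = 0.0458) kept its call only without DT replicate 2, DT replicate 3 or DTE replicate 1, and lost it without any other array (adjusted p up to 0.17) and after quantile normalization (adjusted p = 0.192).

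IFIT5, which binds single-stranded and transfer RNA, had log2 intensities of 6.12, 6.31 and 6.63 in DTE, 5.49, 5.94 and 5.75 in DT, 6.48, 6.70 and 6.68 in E, and 5.95, 6.01 and 6.05 in DMSO. Both entinostat groups lay above both groups without. The log2 change was 0.62 in E against DMSO (SE 0.14, adjusted p = 0.0058) and 0.63 in DTE against DT (SE 0.14, adjusted p = 0.00408), and in DTE against DMSO 0.35 (adjusted p = 0.0741).

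IFIT3, a partner that stabilises IFIT1 on RNA, had log2 intensities of 4.41, 3.72 and 4.09 in DTE, 4.25, 3.87 and 4.02 in DT, 3.94, 3.74 and 3.85 in E, and 4.26, 4.26 and 4.62 in DMSO. It was lower in E by a log2 change of -0.54 (SE 0.16, adjusted p = 0.0291), which was lost without DMSO replicate 3, E replicate 2 or E replicate 3 (adjusted p up to 0.145). IFIT2 and IFIT1B were called in none of the 5 comparisons, and both lay below the lower quartile of genes in DMSO.

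IFITM proteins restrict the entry of enveloped viruses. Of the 6 IFITM probe sets, IFITM2, IFITM3 and the pseudogene IFITM4P were called lower in DTE against DMSO, by -0.64, -0.49 and -0.56 (adjusted p = 0.00451, 0.0055 and 0.00674), and after quantile normalization only IFITM4P was called. Of all genes, 22.5% were called lower in DTE and 24.1% in DT, and 14.2% and 7.86% after quantile normalization. In DT the call was IFITM2 (-0.55, adjusted p = 0.0155), lost without DMSO replicate 3 or DT replicate 1 (adjusted p up to 0.0549) and after quantile normalization (adjusted p = 0.624). IFITM1 ranged between -0.04 and 0.06 over the 5 comparisons. These genes are close copies of each other, and cross-hybridisation between their probes was not tested.

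Guanylate-binding proteins attack pathogen vacuoles. GBP3 fell by 0.56 on the log2 scale in DTE (adjusted p = 0.00446) and by 0.54 in DT (adjusted p = 0.00763), and after quantile normalization the call held in DTE (adjusted p = 0.0101) but not in DT (adjusted p = 0.156). GBP4 and GBP5 lay below the lower quartile of genes in all 4 groups. GBP4 had log2 intensities of 2.59, 2.24 and 2.49 in DTE, 2.88, 2.51 and 2.30 in DT, 2.73, 2.81 and 2.87 in E, and 1.92, 2.49 and 2.50 in DMSO, with E above DMSO by 0.49 (adjusted p = 0.0529) and no call in any comparison.

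The other effectors held the member with the largest fold change against DMSO among the 48. IFI44L, an interferon-induced gene that dampens the response, had log2 intensities of 4.71, 4.86 and 5.15 in DTE, 3.34, 3.47 and 3.35 in DT, 4.18, 3.81 and 3.96 in E, and 2.98, 3.02 and 2.95 in DMSO. The 4 groups did not overlap, in the order DTE, E, DT and DMSO from high to low, and the DMSO mean lay below the lower quartile of genes, so its fold sizes against DMSO are uncertain too. IFI44L was 3.8-fold higher in DTE than in DMSO (log2 change 1.93, SE 0.13, adjusted p = 6.53e-09), 2-fold higher in E (1.00, SE 0.13, adjusted p = 3.17e-05) and 1.33-fold higher in DT (0.41, SE 0.13, adjusted p = 0.0281). The DT call was lost without any 1 of the 6 DT and DMSO arrays (adjusted p up to 0.0763). DTE exceeded DT by 1.52 (2.87-fold, adjusted p = 2.08e-07) and E by 0.93 (1.9-fold, adjusted p = 7.28e-05). Its neighbour IFI44, on the same chromosome, changed by 0.44 in DTE against DT (adjusted p = 0.0344), lost without DT replicate 1 or 3 or DTE replicate 3 (adjusted p up to 0.185).

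OASL, an oligoadenylate synthetase-like protein that enhances RIG-I signalling, had log2 intensities of 5.24, 5.53 and 5.13 in DTE, 5.01, 4.93 and 4.97 in DT, 6.23, 5.94 and 6.03 in E, and 4.81, 4.98 and 5.02 in DMSO. E stood above all other groups, and DTE lay slightly above DT and DMSO. The log2 change was 1.13 in E (2.19-fold higher, SE 0.13, adjusted p = 6.31e-06), 0.36 in DTE (adjusted p = 0.0361) and 0.03 in DT (adjusted p = 0.884) against DMSO. DTE lay 1.7-fold below E (log2 change -0.77, SE 0.13, adjusted p = 0.000362). The DTE call against DMSO was lost without DMSO replicate 1, DMSO replicate 2, DTE replicate 1 or DTE replicate 2 (adjusted p up to 0.192).

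MX2, a dynamin-like GTPase that blocks HIV-1, had log2 intensities of 6.22, 5.98 and 6.29 in DTE, 6.69, 6.99 and 6.69 in DT, 6.39, 6.45 and 6.21 in E, and 6.84, 7.03 and 6.81 in DMSO. Both entinostat groups lay below both groups without, the reverse of HERC6. MX2 changed by -0.73 in DTE (SE 0.13, adjusted p = 0.000307) and by -0.55 in E (SE 0.13, adjusted p = 0.00686) against DMSO, and by -0.63 in DTE against DT (adjusted p = 0.00186). DT against DMSO gave -0.10 (adjusted p = 0.622).

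ISG20, an exonuclease that degrades RNA, had log2 intensities of 4.26, 3.44 and 3.78 in DTE, 3.79, 3.98 and 3.69 in DT, 5.16, 4.76 and 4.90 in E, and 4.76, 4.50 and 4.37 in DMSO. The DTE and DT arrays were lower than all others, and E and DMSO met at their edges. ISG20 changed by -0.71 in DTE (adjusted p = 0.00424) and by -0.72 in DT (adjusted p = 0.00491) against DMSO. After quantile normalization the adjusted p was 0.011 in DTE and 0.0512 in DT. SAMD9, a restriction factor for poxviruses, was higher by 0.49 in DTE (adjusted p = 0.0115) and 0.51 in E (adjusted p = 0.0173), the first lost without DMSO replicate 1 or DTE replicate 3 (adjusted p up to 0.0651) and the second without DMSO replicate 1 or E replicate 2 (up to 0.0904). Its paralogue SAMD9L stayed between -0.05 and 0.02 in all 5 comparisons.

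For class I presentation, the peptide-trimming enzyme ERAP2 fell with dabrafenib and trametinib, while B2M, the invariant light chain of every HLA class I molecule, was called in no comparison. ERAP2 had log2 intensities of 6.45, 6.34 and 6.75 in DTE, 6.48, 6.69 and 6.37 in DT, 7.13, 7.03 and 7.06 in E, and 7.31, 7.55 and 7.34 in DMSO. DTE and DT overlapped below E, and E lay below DMSO. The change was -0.89 in DTE (1.85-fold lower, SE 0.13, adjusted p = 5.32e-05), -0.89 in DT (1.85-fold lower, SE 0.13, adjusted p = 7.28e-05) and -0.32 in E (adjusted p = 0.112, and 0.0135 after quantile normalization) against DMSO. ERAP1, its paralogue in peptide trimming, changed by -0.54 in DT (adjusted p = 0.00401, and 0.0544 after quantile normalization). Unlike ERAP2, it was not called in DTE against DMSO (-0.16), nor in E (0.17). In DTE against DT it was called higher, by 0.39, a call lost after quantile normalization.

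B2M had log2 intensities of 7.75, 7.79 and 8.10 in DTE, 7.58, 7.74 and 7.64 in DT, 7.78, 7.99 and 7.98 in E, and 7.98, 7.94 and 7.98 in DMSO. The difference from DMSO was -0.09 in DTE (95% interval -0.35 to 0.16), -0.31 in DT (-0.57 to -0.06, adjusted p = 0.0641) and -0.05 in E (-0.31 to 0.20). TAPBP, the tapasin chaperone that holds HLA class I at the peptide transporter, had log2 intensities of 8.08, 8.08 and 8.05 in DTE, 8.41, 8.51 and 8.34 in DT, 8.42, 8.20 and 8.41 in E, and 8.70, 8.70 and 8.37 in DMSO. DTE was the lowest group on all 3 arrays, with a change of -0.52 against DMSO (SE 0.12, adjusted p = 0.00321), which was -0.23 after quantile normalization (adjusted p = 0.121).

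HLA-F-AS1, a transcript antisense to HLA-F, had log2 intensities of 4.43, 4.80 and 5.05 in DTE, 4.85, 5.24 and 4.47 in DT, 4.08, 4.65 and 4.11 in E, and 3.29, 4.13 and 3.28 in DMSO. DTE and DT lay above DMSO, and E overlapped it. The change was 1.19 in DTE (2.28-fold higher, SE 0.23, adjusted p = 0.000732), 1.29 in DT (2.44-fold higher, SE 0.23, adjusted p = 0.000508) and 0.71 in E (SE 0.23, adjusted p = 0.045). The E call was lost without DMSO replicate 1 or 3, DT replicate 1, any 1 of the 3 E arrays or DTE replicate 2 (adjusted p up to 0.208) and after quantile normalization (adjusted p = 0.13). DMSO replicate 2 was well above the other DMSO arrays, and the strand of the probes is unknown here.

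The effect of entinostat was measured on separate arrays without dabrafenib and trametinib (E against DMSO) and with them (DTE against DT). In DTE against DT, 9 members were called higher (18.8%, against 13.8% of all genes) and 4 lower (8.33%, against 5.09%), and after quantile normalization 8 and 6 (all genes 12.2% and 12%). DDX60L, HERC5, HERC6, IFI44L, IFIT1 and IFIT5 were called higher in both settings, which is 6 of the 10 called higher in E against DMSO and 6 of the 9 in DTE against DT (all genes 64.2% and 58.2%). MX2 was called lower in both, 1 of 2 and 1 of 4 (all genes 51.6% and 35.8%). After quantile normalization the members called higher in both were DDX60L, HERC5, HERC6, IFI44L and IFIT5, without IFIT1, and those called lower in both were IRF4 and MX2. The 2 changes correlated over the 48 members with Pearson r = 0.692, and over all genes with r = 0.685, as a description across genes that share arrays. The sign was the same for 33 of 48 members, against 67% of all genes.

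The effect of dabrafenib and trametinib was measured in the same way without entinostat (DT against DMSO) and with it (DTE against E). In DTE against E, 3 members were called higher (6.25%, against 2.08% of all genes) and 15 lower (31.2%, against 22.4%), and after quantile normalization 5 and 4 (all genes 6.99% and 5.84%). DDX60, DTX3L, ERAP2, GBP3, IFITM2, IRF1, IRF2, IRF3, ISG20 and RIGI were called lower in both settings, which is 10 of the 15 in DT against DMSO and 10 of the 15 in DTE against E (all genes 55.6% and 59.7%). IFI44L, IFIT1 and IRF4 were called higher in both, which is 3 of 5 and 3 of 3 members (all genes 35% and 54.5%). After quantile normalization the members called lower in both were IRF1 and RIGI, and those called higher in both were HLA-F-AS1, IFI44L, IFIT1 and IRF4. The correlation over the members was r = 0.757, and r = 0.701 over all genes.

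Members with an ISRE core upstream were described beside those without, for the 37 with an entry. In DTE against DT, 7 of 17 members with the core were called higher, against 2 of 20 without (13.8% of all genes), with median log2 changes of 0.22 and 0.00. After quantile normalization the counts were 7 and 1 (12.2% of all genes). In E against DMSO the counts were 6 and 3 (12.5% of all genes), with medians of 0.26 and 0.04. After quantile normalization they were 5 and 2 (9.67% of all genes). Members called lower numbered 0 and 2 in DTE against DT (5.09% of all genes), and 1 and 0 in E against DMSO (3.54%). After quantile normalization the lower calls numbered 1 and 3 in DTE against DT (12% of all genes), and 1 and 2 in E against DMSO (8.45%). In DT against DMSO, 2 with the core were called higher and 5 lower, against 3 and 7 without (3.23% and 24.1% of all genes). The medians were -0.28 and -0.23. After quantile normalization the counts were 3 and 0 with the core, and 3 and 3 without (8.55% and 7.86% of all genes). In DTE against DMSO they were 4 and 5, and 3 and 5 (9.64% and 22.5% of all genes). The medians were -0.01 and -0.19, and after quantile normalization the counts were 7 and 2, and 3 and 5 (14.2% and 14.2% of all genes). The shares of all genes were not split by motif. HERC6, one of the larger rises with entinostat, had no match, while B2M, TAPBP and ISG15 each had 2.

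**Figure D4:**
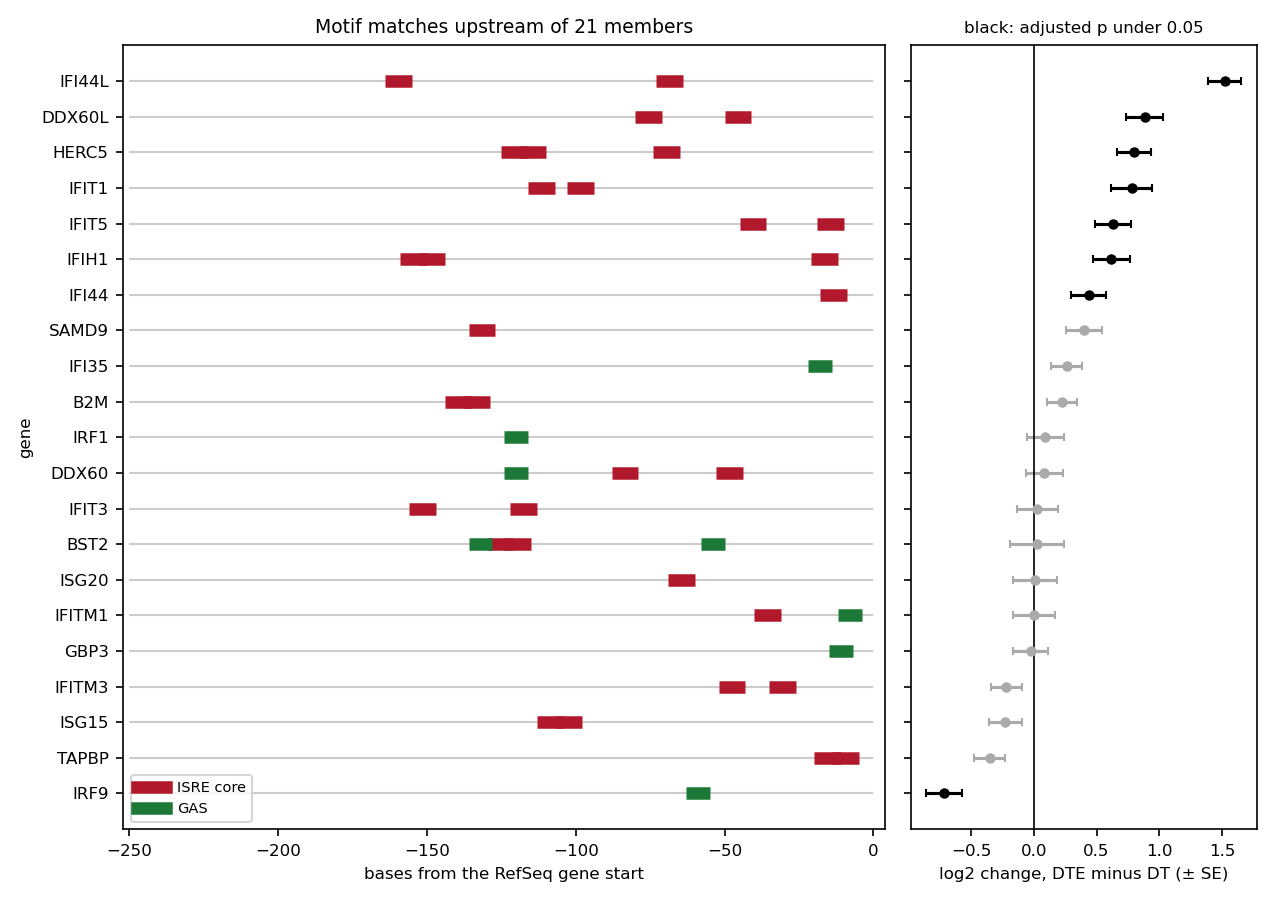
Positions of ISRE core (red) and GAS (green) matches in the 250 bases before the RefSeq start of the members that hold either (left, in bases from the start), and the log2 change in DTE against DT with its SE (right; black points have an adjusted p under 0.05). IFI44L, with matches starting 164 and 73 bases before the start, has the largest change shown, 1.52.

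On the log2 scale the 3-drug change equals the sum of the separate changes where effects are additive. The departure from this sum, DTE minus DT less E minus DMSO, was called for 1 of 48 members in limma (2.08% lower, against 0.473% of all genes; 0 were called higher, against 0.562%), and 9 members (18.8%, against 11.5% of all genes) had an unadjusted p under 0.05. OASL was the called member, with a departure of -0.80 (SE 0.18, 95% interval -1.18 to -0.42, adjusted p = 0.0403). Its separate changes summed to 1.16, while DTE differed from DMSO by 0.36. After quantile normalization 0 members were called in either direction (all genes 1.19% higher and 0.96% lower), and the value of OASL was -0.75 (adjusted p = 0.0563). On the deposited scale its call held without E replicate 2 or DTE replicate 2 and was lost without any other array (adjusted p up to 0.112), and the departure ranged from -0.91 to -0.72 over the 12 omissions. The next smallest p-values belonged to IRF9 (-0.58, adjusted p = 0.216), IFI44L (0.52, 95% interval 0.13 to 0.91, adjusted p = 0.242), IRF4 (-0.58, adjusted p = 0.248) and GBP4 (-0.62, adjusted p = 0.288), and these were not called. The departure was above 0 for 21 members (43.8%, against 49.6% of all genes).

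**Figure D5:**
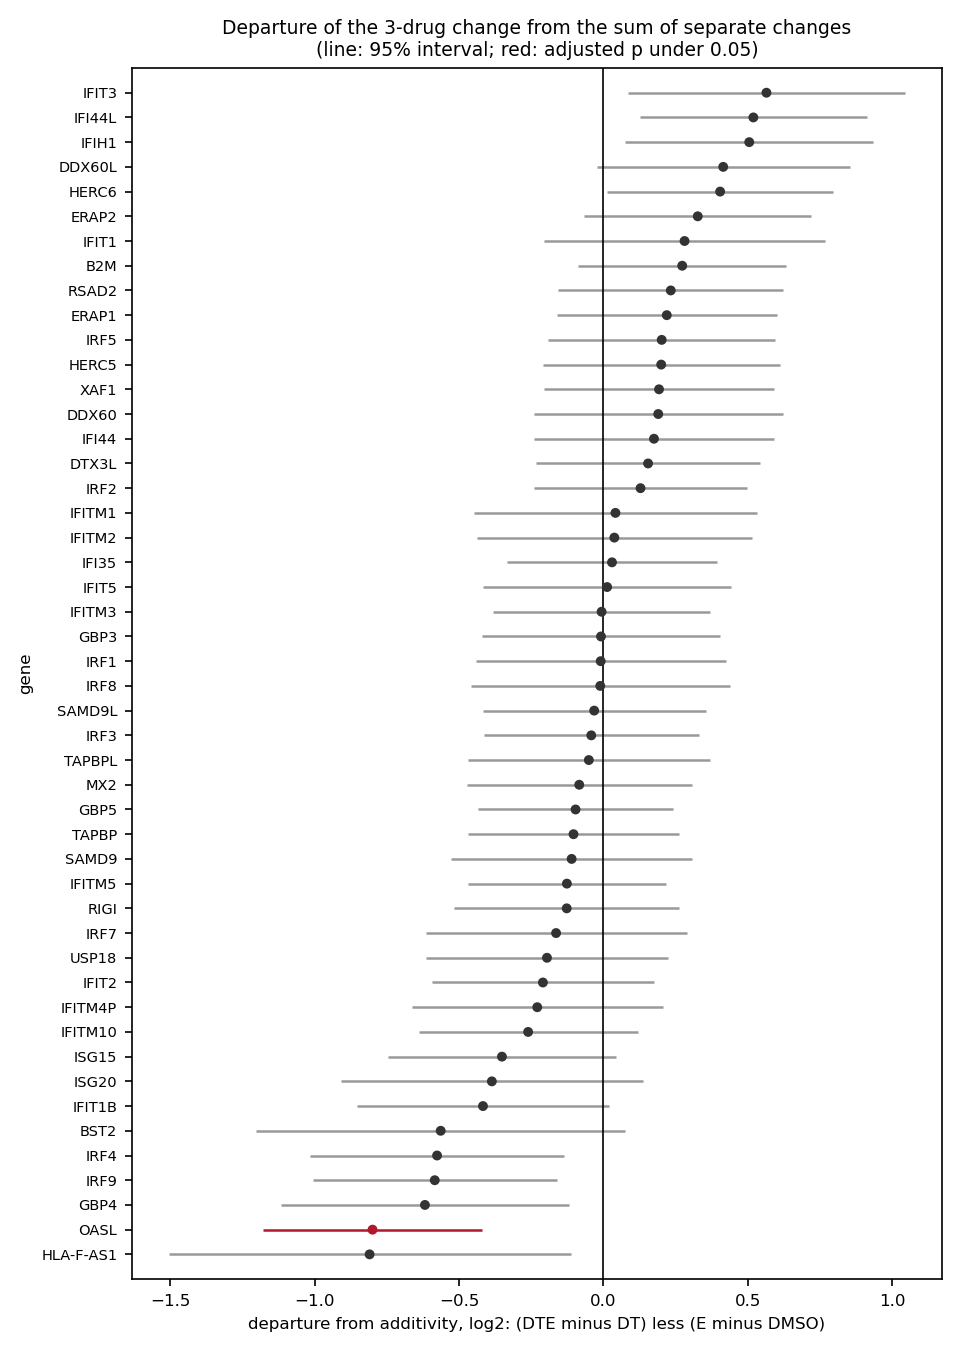
Departure of the 3-drug change from the sum of the separate changes for each of the 48 members (points, log2 scale), with 95% intervals (lines). OASL, at -0.80, is the member in red with an adjusted p under 0.05, and IFI44L lies on the positive side at 0.52.

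The 14 members called in none of the 5 comparisons between groups were B2M, GBP4, GBP5, IFIT1B, IFIT2, IFITM1, IFITM10, IRF5, IRF7, IRF8, RSAD2, SAMD9L, TAPBPL and XAF1. Among these, RSAD2, the antiviral enzyme viperin, ranged from -0.29 to 0.18, and IRF7, which amplifies the type I interferon response, from -0.24 to -0.00183. XAF1 and TAPBPL reached -0.36 at their lowest. BST2, tetherin, which holds budding virus at the cell surface, was called in DTE against E alone (-0.86, SE 0.22, adjusted p = 0.00778, and 0.0712 after quantile normalization), and its DTE arrays had an SD of 0.63.

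Other genes of the pathway, which are not members, were counted by list. Of the 6 interferon receptor genes, 2 were measured. IFNGR2, a chain of the interferon-gamma receptor, changed by -1.40 in DTE (SE 0.12, adjusted p = 1.02e-07), by -1.78 in DT (SE 0.12, adjusted p = 4.51e-09) and by 0.02 in E against DMSO, and by -1.17 and -1.43 in DTE and DT after quantile normalization. IFNGR1 changed by 0.42 in E (adjusted p = 0.023), and by 0.23 after quantile normalization, where it was not called (adjusted p = 0.226). Of 27 measured interferon-stimulated genes outside the member families, 5 were called higher and 9 lower in DTE, where 9.64% and 22.5% of all genes were. The counts were 1 and 10 in DT (all genes 3.23% and 24.1%), and 7 and 2 in E (all genes 12.5% and 3.54%). After quantile normalization they were 5 and 6 in DTE, 3 and 3 in DT, and 3 and 4 in E. In that list CD274, which encodes the checkpoint ligand PD-L1, changed by 0.60 in DTE (adjusted p = 0.00756), -1.57 in DT (adjusted p = 1.07e-06) and 1.84 in E (adjusted p = 3.18e-07) against DMSO. CD274 had log2 intensities of 5.25, 5.50 and 5.71 in DTE, 2.95, 3.66 and 3.31 in DT, 6.89, 6.59 and 6.69 in E, and 4.92, 4.93 and 4.80 in DMSO, so no pair of groups overlapped. GMPR, a guanosine monophosphate reductase, changed by 1.63 in DTE (adjusted p = 1.69e-08) and 1.58 in E (adjusted p = 6.46e-08). WARS1, a tryptophan transfer RNA synthetase, changed by -1.43 in DTE (adjusted p = 2.78e-07) and -0.92 in E (adjusted p = 8.47e-05), and RTP4, a receptor transporter protein, by -1.13 in E (adjusted p = 2.09e-05). Of 15 measured genes for other nucleic acid sensors and their adaptors, 2 were called higher and 4 lower in DTE, 6 lower in DT and 4 higher in E, beside the all-gene shares given for the previous list. After quantile normalization 2 were called higher and 4 lower in DTE, 2 higher and 2 lower in DT, and 3 higher in E. The largest falls called were TLR4 (-1.77 in DTE and -2.62 in DT, adjusted p = 3.79e-07 and 2.2e-09) and CGAS (-0.84 in DTE and -1.12 in DT, adjusted p = 0.000522 and 4.62e-05). The largest rises called were TLR7 (1.17 in DTE and 0.83 in E, adjusted p = 0.000266 and 0.00841) and SAMHD1 (0.93 in DTE and 1.10 in E, adjusted p = 1.99e-05 and 6.78e-06). TLR7 was among the dimmest 25% of genes, with a DMSO mean of 2.39, and the size of its rises is uncertain. Its DTE arrays read 4.23, 3.11 and 3.33, and replicate 1 raised the DTE mean.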

How the data were processed

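RNA from 4 groups of cells was measured on 12 Affymetrix arrays, 3 per group, with groups taken from the treatment labels. The authors deposited linear intensity values, from 1.88 to 8728. The submitters' processing notes name RMA, which corrects, normalizes and summarises probe signals, and the Transcriptome Analysis Console, without versions. Any scaling after RMA is unknown. The number of arrays limits the precision, and no background measure per probe set was used. Of 29396 probe sets, 14748 carried 1 gene symbol and 14648 none, all 14748 were matched by NCBI gene identifier, and for 156 genes with several probe sets the brightest was kept (14580 genes). The deposited intensities were converted to log2 here and fitted with limma 3.58.1 in R 4.3.3 as group means (lmFit, eBayes, 8 residual degrees of freedom), with Benjamini-Hochberg adjustment over all genes in a comparison. The fit was tested on simulated data. Alternatives were quantile normalization, median centring, removal of the dimmest 25% of genes, the mean of all probe sets, eBayes with trend and robust, a replicate block and leaving out each array.

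The members and lists were chosen with earlier results of these data known. Values on each array are printed for the 5 largest called rises and falls per comparison with DMSO whose arrays did not overlap, the 5 smallest departure p-values and 19 genes named whatever their result, of which 6 were measured. CD274 was given array by array after its values were seen. Non-members named are among the 2 largest called rises and falls of a list in a comparison, and not all of these are printed; 12 of 14 lists had a measured gene. Upstream sequences came from RefSeq (GRCh38.p14) and were read with pandas 2.3.3 in Python 3.11.15. The authors' genome build was not given in the sources used here.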

Additional observations from a re-analysis of the deposited data

Results flagged for a closer look

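OASL differed between the 2 settings in which entinostat was given: its log2 change was 0.33 in DTE against DT and 1.13 in E against DMSO, a difference of -0.80 (SE 0.18, unadjusted p = 0.000337, adjusted p = 0.0403 in limma over all genes). The adjusted p was 0.0563 after quantile normalization, and the call was lost without any 1 of 10 of the 12 arrays (all but E replicate 2 and DTE replicate 2). No other member differed between the settings at an adjusted p under 0.05, and no cause was tested.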

How the results depend on the processing

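Scale was the choice that moved most counts. After quantile normalization the members called lower numbered 4 in DT, 4 in E and 9 in DTE against DMSO, and 4 in DTE against E, where 5 were called higher; the departure lost its 1 call. The median log2 change of the members turned to 0.0321 in DT and -0.0325 in E against DMSO, -0.10 in DTE against DT and 0.00507 in DTE against E. After median centring, 7 members were called lower in DT, 5 higher and 7 lower in E. In DTE against DT 7 were called lower, and in DTE against E 5 higher and 5 lower. The medians were -0.0336 in DT, -0.0910 in E, -0.16 in DTE against DT and -0.0404 in DTE against E. Of all 14580 genes, median centring gave 1743 lower in DT, and 1098 higher and 2372 lower in E. It gave 2245 lower in DTE against DT, and 978 higher and 1007 lower in DTE against E. The medians over all genes were 0.04, -0.13, -0.11 and 0.03 in the same order. The cause was not tested. Leaving out 1 array gave 2 to 5 members higher and 11 to 17 lower in DT, 5 to 11 higher and 1 to 3 lower in E, 5 to 10 higher and 14 to 18 lower in DTE, 7 to 11 higher and 3 to 5 lower in DTE against DT, 10 to 17 lower in DTE against E and 0 to 1 lower for the departure. No named gene changed sign while called, under any of these settings. Same-numbered arrays deviated together weakly at most (18 pairs, 3 with r over 0.1, range -0.0966 to 0.172). Their median r was 0.0505, against -0.0284 for arrays with other numbers. The numbers were not taken as pairs. With them as a block, the calls higher and lower were 5 and 15 in DT, 9 and 3 in E, and 9 and 16 in DTE. Calls over all genes were not counted with an array left out or with the block. The member counts of those fits therefore have no share of all genes beside them. Genes below the lower quartile were not shown to lie above background.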
